A study of Ovis aries with 7 samples.

Results

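GAD1, GAD2, SLC32A1, SLC6A11 and ABAT encode proteins that make, store, take up and break down the inhibitory transmitter GABA, and their transcripts were followed by cell class in nuclei of the sheep striatum. They were chosen by symbol, and the 5 genes are 5 of the 26479 features in the count matrices (identifiers ENSOARG00020003295, ENSOARG00020025435, ENSOARG00020011811, ENSOARG00020025603 and ENSOARG00020013907, in that order). The tissue was frozen anterior striatum of 12 sheep aged 5 years. Of these, 6 were OVT73 animals, a transgenic line that carries a full-length human huntingtin (HTT) cDNA with an expanded polyglutamine tract, and 6 were age-matched controls without the transgene. OVT73 sheep retain their own HTT and express the transgene at a low level, and both groups held females and males. Nuclei were sequenced as 7 droplet libraries: OVT73 1, 2 and 3 and control 3 and 4 each pooled 2 sheep, while control 1 and control 2 each held 1 sheep. A library was 1 replicate, so each p-value measures the spread between libraries, in which sheep and pooling cannot be told apart.

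GABA is made from glutamate by the glutamic acid decarboxylases GAD67 (GAD1) and GAD65 (GAD2), and is loaded into synaptic vesicles by the vesicular transporter VGAT (SLC32A1). After release it is taken back up by plasma membrane transporters, among them GAT-3 (SLC6A11), which is best known from astrocytes, and is then degraded in mitochondria by GABA transaminase (ABAT) and succinic semialdehyde dehydrogenase (ALDH5A1). Medium spiny neurons (MSNs), the GABAergic projection neurons that make up most striatal neurons, are divided by dopamine receptor into D1 and D2 types and are the cells most affected in Huntington's disease.

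The libraries held 35272 barcodes, with 27760110 to 70473426 unique molecular identifiers (UMIs, counts of single captured transcripts) per OVT73 library and 20887378 to 27704528 per control library. After filtering, 32599 nuclei remained, with a median of 2221 to 2562 UMIs in OVT73 and 1860 to 2170 in control libraries. A given pair of libraries shared 2 to 20 barcode sequences. The HTT feature that was added to the reference had 342, 63 and 27 UMIs in OVT73 1, 2 and 3 and 1 to 6 in the control libraries. Clustering without the GABA genes gave 28 clusters, of which 8 stayed unnamed and 19 formed the 14 classes described here, with 30627 nuclei. Class names stand for nuclei that resemble a cell type by its marker transcripts, except "SLC17A6 neuron" and "DTHD1 glia", which carry the name of a leading gene. Levels by class are counts per 1000000 UMIs (CPM) in the sum over a library's nuclei of that class, as mean ± SD over the 7 libraries. They were compared for the 10 classes in which each library had 10 or more nuclei.

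GAD1 was found in all 5 neuron classes tested and was highest in neuroblast-like nuclei, at 326 ± 44.0 CPM. PV/Th interneurons had 225 ± 36.3 CPM and eccentric MSNs, a small MSN class apart from D1 and D2, 214 ± 61.8 CPM. D2 MSNs had 108 ± 17.7 and D1 MSNs 78.3 ± 18.1 CPM. PV/Th interneurons and eccentric MSNs thus lay within one another's SD. In glia GAD1 did not exceed a mean of 5.55 CPM, the value in microglia.

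GAD2 had a different order among the neurons. It was highest in PV/Th interneurons, at 352 ± 65.2 CPM, and next in D2 MSNs, at 269 ± 38.8 CPM. Neuroblasts (211 ± 36.5 CPM), D1 MSNs (194 ± 31.8 CPM) and eccentric MSNs (180 ± 26.9 CPM) followed, with differences smaller than their SD. The glial classes had means of 6.18 (oligodendrocyte precursor cells, OPCs) to 13.7 CPM (microglia).

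**Figure D1:**
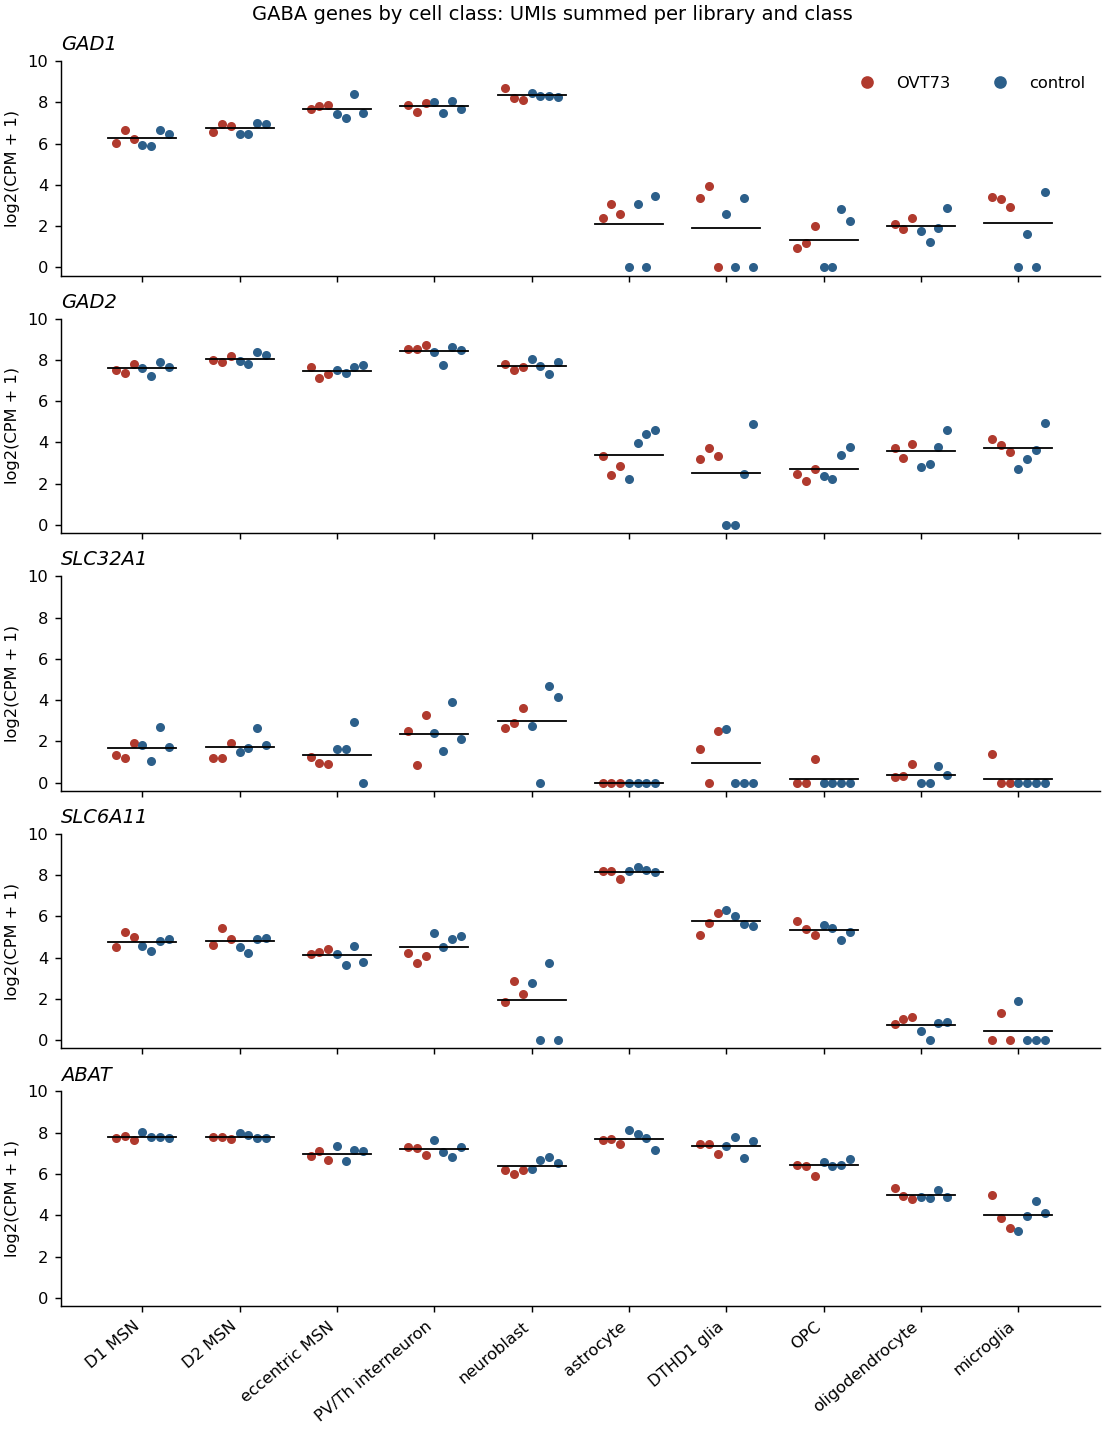
The 5 panels plot log2(CPM + 1) of each GABA gene in 10 cell classes, with 1 point per library (red OVT73, blue control) and a line at the mean of the 7 libraries. GAD1 and GAD2 stand high in the 5 neuron classes, SLC6A11 is highest in astrocytes, ABAT is found in every class, and SLC32A1 is low throughout.

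Free RNA gives UMIs in nuclei that do not express a gene, and depth differed widely between classes. Oligodendrocytes, which should lack the GAD genes, were therefore used as the background, with a median of 1768 UMIs per nucleus against 22383 in D1 and 23194 in D2 MSNs. When each nucleus was thinned to 1000 UMIs, a GAD1 UMI was found in 0.335% of oligodendrocytes, 7.42% of D1 MSNs, 8.58% of D2 MSNs, 16.9% of eccentric MSNs, 20.5% of PV/Th interneurons and 30.2% of neuroblasts. The same classes had 0.708%, 74.2%, 78.9%, 88.1%, 88.9% and 41.6% before thinning. Nuclei below 1000 UMIs were left out, which removed 502 oligodendrocytes of OVT73 and 1217 of control libraries and 241 and 181 neuroblasts, but no MSN of the 3 classes. These MSN classes do not include an unnamed cluster of 775 nuclei, at a median of 1172 UMIs, in which 7 of 10 MSN markers were raised. Of its nuclei, 266 came from control 2. All 5 neuronal shares thus lay far above the oligodendrocyte share at 1 depth. The other glial classes had 0.166% (OPCs) to 0.788% (microglia). Macrophages, with 150 nuclei at this depth, had 4.67%, nearer to the D1 and D2 MSN shares. Neuroblasts, whose share before thinning was the lowest of these neurons, had the highest one after it.

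Both decarboxylases were often present in the same nucleus. At 10000 UMIs per nucleus, both GAD1 and GAD2 UMIs were found in 39.3% of D1 MSNs, 49.6% of D2 MSNs, 55.3% of eccentric MSNs and 82.2% of PV/Th interneurons. In SST/NPY interneurons the share was 18.8%, from 80 nuclei. Taken singly, GAD1 was found in 50.5% of D1, 57.6% of D2 and 78.8% of eccentric MSNs and 88.2% of PV/Th interneurons. For GAD2 these shares were 79.1%, 86.3%, 72.3% and 93.3%. Whether both were found together more often than the single shares give was not tested. Nuclei below 10000 UMIs were left out (175 D1, 169 D2 and 55 eccentric MSNs, 100 PV/Th and 28 SST/NPY interneurons).

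Since the 2 transcripts may be captured with different efficiency, their ratio was not read within a class but was compared between classes. The ratio of GAD1 to GAD2 UMIs was 0.40 ± 0.06 in D2 MSNs, 0.41 ± 0.10 in D1 MSNs and 0.65 ± 0.11 in PV/Th interneurons. It was 1.21 ± 0.37 in eccentric MSNs and 1.57 ± 0.27 in neuroblasts.

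Of the 10 pairs of neuron classes, 8 differed (two-sided exact sign-flip permutation test over 7 libraries, Benjamini-Hochberg adjusted p under 0.05). The ratio in eccentric MSNs was 2.92-fold that in D1 MSNs and 2.90-fold that in D2 MSNs, higher in 7 of 7 libraries for both (exact permutation, adjusted p = 0.0260). In neuroblasts it was 3.90-fold that in D1 MSNs, again in 7 of 7 libraries (exact permutation, adjusted p = 0.0260). PV/Th interneurons stood between, 1.61-fold above D1 and 1.60-fold above D2 MSNs in 6 of 7 libraries (exact permutation, adjusted p = 0.0391) and 1.81-fold below eccentric MSNs in 7 of 7 (exact permutation, adjusted p = 0.0260). The last call was lost when the GABA genes entered the clustering (exact permutation, adjusted p = 0.0521).

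D1 and D2 MSNs were not told apart by this ratio. The mean log2 difference was 0.01, with an SD of 0.18 over 7 libraries (exact permutation, adjusted p = 0.906). Neuroblasts were above eccentric MSNs in 6 of 7 libraries, by 0.42 ± 0.36 on the log2 scale, which missed the threshold (exact permutation, adjusted p = 0.0521). With any 1 library left out the smallest p such a test can give rises from 0.0156 to 0.0312, and all 8 calls were lost without OVT73 1 or without any 1 of the control libraries. The mean difference kept its direction in all 7 such repeats for the pairs named above other than D1 against D2.

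**Figure D2:**
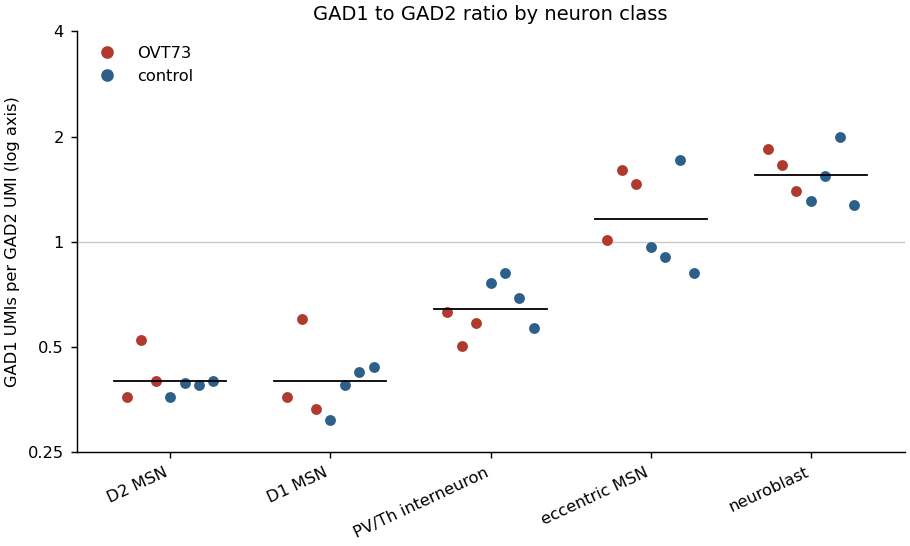
GAD1 UMIs per GAD2 UMI on a log axis for 5 neuron classes, 1 point per library (red OVT73, blue control), with a line at the geometric mean of the 7 libraries. D1 and D2 MSNs lie near 0.4 and PV/Th interneurons at 0.503 to 0.814, whereas neuroblast libraries lie at 1.28 to 2.0.

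SST/NPY interneurons, which were too few for a test (108 nuclei, 8 to 22 per library), had the highest pooled ratio. They held 257 GAD1 and 86 GAD2 UMIs in all, a ratio of 2.99 with an exact 95% interval of 2.33 to 3.86. The libraries were spread far beyond this interval, from 1.33 in OVT73 2 to 8.75 in control 4, on 4 to 24 GAD2 UMIs each. In OVT73 2 the SST/NPY ratio was below those of eccentric MSNs (1.61) and neuroblasts (1.66), so the order rests on the pooled counts. GAD1 was at 132 CPM (exact Poisson interval 116 to 149) and GAD2 at 44.2 CPM (35.3 to 54.5). In the 60 nuclei of cholinergic interneurons, whose transmitter is acetylcholine, GAD1 was at 78.9 (64.8 to 95.1) and GAD2 at 65.3 CPM (52.5 to 80.1). Of their 110 GAD1 UMIs, 35 came from OVT73 1 and 37 from control 4, and of their 91 GAD2 UMIs 35 and 25. Single libraries ranged from 23.6 to 120 CPM for GAD1 and from 19.7 to 120 CPM for GAD2, beyond these intervals. The 182 macrophage nuclei, an immune class, held 31 GAD1 and 20 GAD2 UMIs (90.1 CPM, 61.2 to 128, and 58.1 CPM, 35.5 to 89.7), above the mean of every glial class tested. Of the GAD1 UMIs 16 came from OVT73 1 and 12 from control 4, and of the GAD2 UMIs 12 and 6. In these sums the neuroblast markers stood at 1151 and 1007 CPM and the MSN markers at 1017 and 554 CPM, against 0 to 745 and 213 to 1014 CPM in the other libraries, and the part of neuronal RNA in the macrophage values was not tested. These intervals, like those below, cover counting error only and not the spread between sheep.

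The levels of both decarboxylases were higher in D2 than in D1 MSNs, whereas the difference in their ratio did not pass the test. Normalized GAD1 CPM (scaled by TMM, edgeR's trimmed mean of M-values) in OVT73 1, 2 and 3 were 68.9, 105 and 74.1 in D1 and 96.1, 133 and 117 in D2 MSNs. In control 1 to 4 they were 58.8, 58.9, 93.6 and 89.4 in D1 and 85.5, 88.4, 119 and 121 in D2 MSNs. D2 was above D1 in every library. The difference on the scale log2(CPM + 1) was 0.48 ± 0.12, a 1.39-fold higher level, and that of GAD2 was 0.47 ± 0.09, also 1.39-fold and in 7 of 7 libraries (two-sided exact sign-flip permutation test, unadjusted p = 0.0156 for each, the smallest that 7 libraries can give).

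The differences of SLC32A1, SLC6A11 and ABAT, 0.01 ± 0.29, 0.03 ± 0.12 and -0.0038 ± 0.06, did not pass it (exact permutation, p = 0.875, 0.578 and 0.891). This D2 against D1 test was added after the values were seen. The D2 class holds a cluster of 208 nuclei with DRD2 but little of the D2 peptide gene PENK (6.78 against 50.4 CPM), in which GAD1 stood at 228 CPM and GAD2 at 396 CPM, against 93.1 and 250 CPM in the other D2 cluster. Without it GAD1 was 1.21-fold and GAD2 1.31-fold higher in D2 MSNs, still in 7 of 7 libraries (exact permutation, p = 0.0156 for each).

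SLC32A1 was scarce. In D1 MSNs it had 150 UMIs in 7 libraries, 2.46 ± 1.52 CPM, and in D2 MSNs 124 UMIs, 2.45 ± 1.37 CPM. PV/Th interneurons had 5.34 ± 4.52 CPM and neuroblasts 10.0 ± 8.29 CPM, the latter from 16 UMIs. Its presence therefore could not be read nucleus by nucleus: 5.54% of D1 MSNs had a UMI at full depth and 0.115% at 1000 UMIs, against 0.067% and 0.045% of oligodendrocytes. Astrocytes had 0 of 4239086 UMIs, which allows up to 0.708 CPM (3 counts). Cholinergic interneurons had 0 of 1394632 UMIs, which allows up to 2.15 CPM.

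SLC6A11 was highest in astrocytes, and its UMIs were also found in other classes. Astrocytes had 290 ± 33.1 CPM, from 223 CPM in OVT73 3 to 333 CPM in control 2. They do not include an unnamed cluster of 127 nuclei with the glutamate transporter gene SLC1A2 and AQP4 among its leading genes. SLC6A11 was at 106 CPM there, from 98 UMIs. Its nuclei numbered 23, 23 and 17 in OVT73 1, 2 and 3 and 2, 3, 37 and 22 in control 1 to 4. DTHD1 glia, a GFAP-positive class that shares astrocyte markers and differs by DTHD1, had 56.3 ± 16.3 CPM, and OPCs 40.2 ± 8.56 CPM. D2 MSNs (27.6 ± 7.91 CPM), D1 MSNs (26.8 ± 6.0), PV/Th interneurons (23.6 ± 8.93) and eccentric MSNs (17.1 ± 3.95) followed, and neighbours in this order differed by less than the larger of their SDs. Neuroblasts had 4.41 ± 4.29 CPM, oligodendrocytes 0.70 ± 0.41 and microglia 0.61 ± 1.11. SST/NPY interneurons had 54.4 CPM (exact Poisson interval 44.6 to 65.8, from 106 UMIs).

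The neuronal SLC6A11 counts were set beside those of other astrocyte transcripts in the same sums. The part of astrocyte RNA in the neuronal counts was not tested. Per SLC6A11 UMI, astrocytes held 21.7 ± 4.77 UMIs of the glutamate transporter SLC1A2, from 15.5 to 30.8 in the 7 libraries. D1 MSNs held 0.181 ± 0.079 and D2 MSNs 0.292 ± 0.078, far below that range. Oligodendrocytes held 17.6 ± 8.07 (6 libraries with an SLC6A11 UMI, 22 UMIs in all), near the astrocyte value. For the astrocyte transcripts AQP4 and GJA1, however, oligodendrocytes held 18.2 and 2.42 per SLC6A11 UMI, against 1.26 and 0.205 in astrocytes. D1 MSNs held 0.0635 and 0.0058 and D2 MSNs 0.0623 and 0.005, below the astrocyte range. Only SLC1A2, AQP4 and GJA1 were counted per SLC6A11 UMI, and other astrocyte genes were divided. The glutamate transporter gene SLC1A3 was at 2.02 and 2.15 CPM in D1 and D2 MSNs, against 2871 CPM in astrocytes. GFAP was at 1.18 and 0.855 against 604 CPM. SLC4A4 was at 384 and 325 CPM in D1 and D2 MSNs and 692 CPM in astrocytes, beside SLC6A11 at 26.8, 27.6 and 290 CPM. Relative to SLC6A11, SLC4A4 and RANBP3L were higher in both MSN classes than in astrocytes. BMPR1B was so too, in D1 MSNs by little, while NTSR2 was lower in both.

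Among other astrocyte transcripts, some were low in MSNs and some were abundant. AQP4, the astrocyte water channel, was at 1.66 CPM in D1 and 1.63 CPM in D2 MSNs against 362 CPM in astrocytes. The gap junction gene GJA1 was at 0.15 and 0.14 against 58.6 CPM. NTSR2 and RANBP3L were at 2.08 and 5.85 in D1 and 2.23 and 5.29 in D2 MSNs, against 30.7 and 18.2 CPM. The other 2 of the 6 astrocyte markers summed here, SLC4A4 (384 and 325 CPM in D1 and D2 MSNs) and BMPR1B (96.1 and 289 CPM), were abundant in MSNs, so that the list summed per library reached 419 to 602 CPM in D1 and 554 to 707 CPM in D2 libraries, against 2017 to 2233 CPM in astrocytes and 125 to 164 CPM in oligodendrocytes. Against oligodendrocytes the markers were divided. AQP4 and GJA1 were lower in MSNs than the 12.4 and 1.55 CPM of oligodendrocytes, and SLC4A4 and NTSR2 were higher than their 10.0 and 0.21 CPM. RANBP3L, at 5.39 CPM in oligodendrocytes, was near the MSN values, and BMPR1B, at 113 CPM, lay between those of D1 and D2 MSNs. In PV/Th interneurons the SLC1A2 ratio was 3.65 ± 1.96, in eccentric MSNs 3.21 ± 2.18 and in OPCs 8.31 ± 1.48. These lay between the values of D1 and D2 MSNs and those of astrocytes. In neuroblasts it was 13.8 ± 7.39, from 7.0 to 25.0 in 5 libraries on 7 SLC6A11 UMIs in all, which overlapped the astrocyte range.

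When thinned to 1000 UMIs, 24.5% of astrocytes had an SLC6A11 UMI, against 2.62% of D1 MSNs, 1.97% of D2 MSNs, 3.75% of OPCs and 0.112% of oligodendrocytes. Unthinned, the shares were 58.9%, 42.6%, 43.9%, 13.7% and 0.164%, so that the MSN shares came near that of astrocytes at full depth only. At 1000 UMIs the MSN shares still lay far above that of oligodendrocytes.

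**Figure D3:**
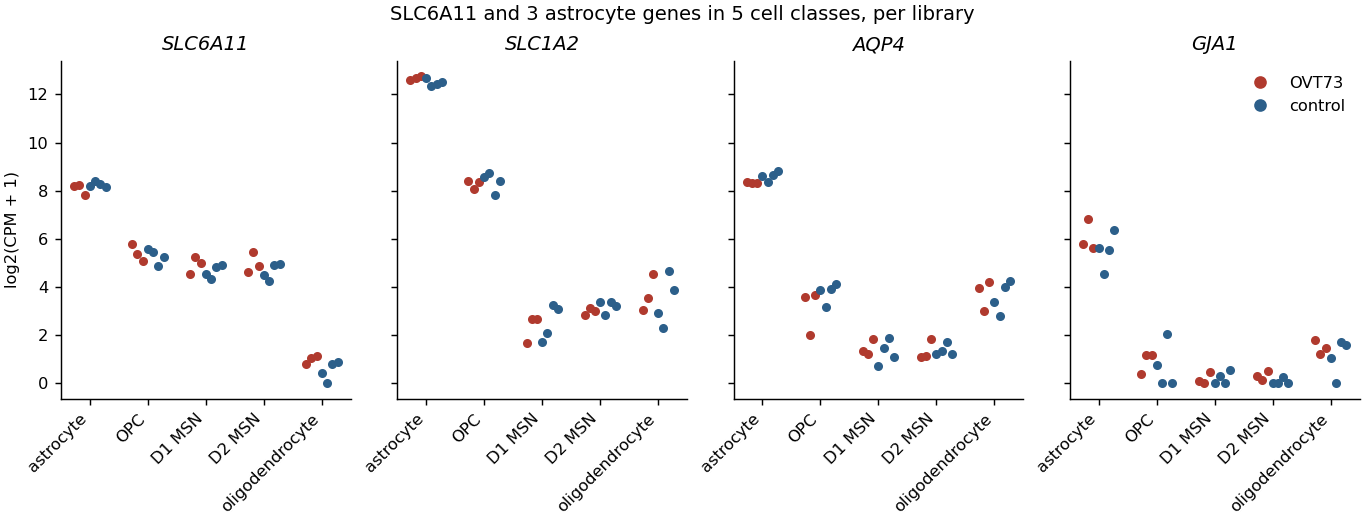
log2(CPM + 1) of SLC6A11 and 3 other astrocyte transcripts in 5 cell classes, 1 point per library (red OVT73, blue control). The MSN means lie above those of oligodendrocytes for SLC6A11 and below them for SLC1A2, AQP4 and GJA1. The markers SLC4A4 and NTSR2, which are not plotted, were above the oligodendrocyte level in MSNs.

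ABAT had the broadest distribution of the 5 genes. D1 MSNs (224 ± 19.3 CPM), D2 MSNs (223 ± 16.5 CPM) and astrocytes (208 ± 45.8 CPM) had the highest levels and did not differ beyond their SD. DTHD1 glia had 165 ± 39.2, PV/Th interneurons 147 ± 28.5 and eccentric MSNs 128 ± 23.5 CPM. OPCs (85.4 ± 14.1) and neuroblasts (84.0 ± 17.7) came next, and oligodendrocytes (30.8 ± 4.65) and microglia (16.8 ± 8.30 CPM) were lowest. ABAT was thus as abundant in the main uptake class, astrocytes, as in the MSNs, and eccentric MSNs had less ABAT than D1 and D2 MSNs but more GAD1. At 1000 UMIs an ABAT UMI was found in 20.4% of D1 MSNs, 19.5% of astrocytes and 3.15% of oligodendrocytes.

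Of 16 further genes of GABA uptake, breakdown and precursor supply, 14 were found by symbol. ALDH5A1, which acts after ABAT, varied less between classes than ABAT, from 36.3 ± 7.98 CPM in oligodendrocytes to 103 ± 19.6 CPM in PV/Th interneurons, with 93.4 ± 8.98 in D1 and 88.9 ± 8.49 in D2 MSNs. The transporters SLC6A12 (BGT1) and SLC6A13 (GAT-2) were nearly absent, SLC6A12 with 1 UMI in the 14 classes and SLC6A13 at no more than a mean of 0.93 CPM in the 10 classes tested.

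The genes whose levels ran most closely with each GABA gene were taken, among the genes reported here, over 88 class and library sums in 14 classes. These correlations are descriptive, since sums share libraries and follow the division into neurons and glia. GAD1 was most like CELF4 (Pearson r = 0.87), ZNF385D (0.87) and GAD2 (0.85), and GAD2 was most like ZNF385D (0.91), SYNPR (0.91) and GDPD5 (0.87). SLC6A11 was most like EAF2 (0.88), DDAH1 (0.85) and TRMT9B (0.85), and ABAT was most like CPE (0.92), SYBU (0.88) and ATP2B2 (0.86). For SLC32A1 the highest value was 0.65, with DSG1.

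No difference between OVT73 and control sheep in a GABA gene passed the threshold in any class. UMIs were summed per library and class and tested across all genes with edgeR's quasi-likelihood test. Of 50 combinations of gene and class, 30 passed the filter on low counts, of which 0 had a Benjamini-Hochberg adjusted p under 0.05. Over all genes 0% were called in each class but eccentric MSNs, where 0.0134% were, so the absence of calls was not particular to the GABA genes. At an unadjusted p under 0.05 there was 1 of 30, SLC6A11 in PV/Th interneurons, against 4.79% of all gene and class pairs. DESeq2 called 0 of 45, with 1 at an unadjusted p under 0.05. The groups did not overlap in 2 of the 30, both lower in OVT73 (background 2.79%), and none was higher without overlap (background 3.13%). All 5 genes passed the filter in D1 and D2 MSNs, 4 each in eccentric MSNs and PV/Th interneurons, 3 each in neuroblasts and oligodendrocytes, 2 each in astrocytes, DTHD1 glia and OPCs, and 0 in microglia. The log2 fold changes of the 30 were positive in 15 and negative in 15, with a median of 0.0015.

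**Figure D4:**
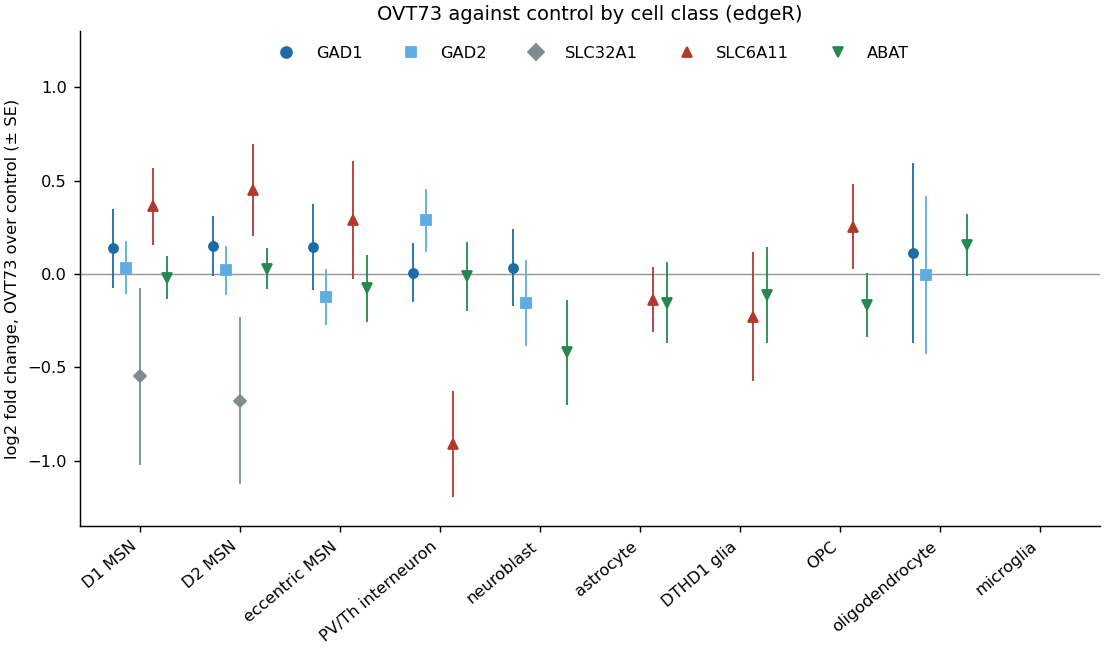
log2 fold change of OVT73 over control ± SE (edgeR) for the GABA genes that passed the filter on low counts in each class, none of which did in microglia. The lowest value is SLC6A11 in PV/Th interneurons at -0.91, and no fold change passed the adjusted threshold.

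In D1 MSNs the GAD1 levels given above averaged 82.8 ± 19.7 in OVT73 and 75.2 ± 18.9 normalized CPM in control libraries. The groups overlapped, with the highest value in OVT73 2 and the lowest in control 1 and 2 (log2 fold change 0.14, SE 0.21, edgeR adjusted p = 0.952). In D2 MSNs GAD1 averaged 115 ± 18.5 against 104 ± 19.2 (log2 0.15, SE 0.16, edgeR adjusted p = 0.924). GAD2 was even closer, with 191, 175 and 223 in OVT73 against 191, 151, 221 and 204 in control D1 MSNs, and 267, 254 and 292 against 237, 224, 306 and 302 in D2 MSNs. The log2 fold changes were 0.03 ± 0.14 and 0.02 ± 0.13 (SE; edgeR adjusted p = 0.981 and 0.994).

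The control libraries were themselves divided. Control 1 and 2, the libraries of 1 sheep, had less GAD1 than control 3 and 4 in both MSN classes, and less GAD2 likewise. Against the pooled control libraries alone, the GAD1 fold change turned to -0.14 in D1 and -0.06 in D2 MSNs, and that of GAD2 to -0.11 and -0.17 (log2, edgeR adjusted p = 0.690 to 0.915). The number of sheep in a library was not separated from differences between sheep.

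In eccentric MSNs GAD1 had 209, 241 and 241 in OVT73 against 173, 154, 330.0 and 179 normalized CPM in control libraries, where control 3 was the highest of all 7 (log2 0.14, SE 0.23). GAD2 in these nuclei had 206, 150 and 165 against 179, 170, 193 and 220 (log2 -0.12, SE 0.15). PV/Th interneurons had GAD1 means of 232 ± 26.3 and 230 ± 39.2 and a GAD2 fold change of 0.29 ± 0.17, with 377, 405 and 436 against 334, 228, 392 and 370. In neuroblasts the changes were 0.03 ± 0.21 for GAD1 and -0.15 ± 0.23 for GAD2. All groups in this paragraph overlapped, and edgeR adjusted p-values were 0.919 to 1.00.

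The SLC32A1 means were lower in OVT73 MSNs, but the groups overlapped and neither difference passed the test. D1 MSNs had 1.65, 1.40 and 2.81 against 2.49, 1.10, 5.12 and 2.35 normalized CPM, and D2 MSNs 1.36, 1.38 and 2.77 against 1.76, 2.17, 4.88 and 2.58. Control 3 was highest in both classes. The log2 fold changes were -0.55 ± 0.48 and -0.68 ± 0.45 (SE; edgeR adjusted p = 0.941 and 0.909), on 5 to 31 UMIs per library.

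The SLC6A11 difference in MSNs leaned on OVT73 2. In D1 MSNs it was at 23.2, 39.1 and 30.6 against 21.9, 19.3, 25.1 and 29.4, and in D2 MSNs at 24.5, 45.8 and 28.8 against 21.1, 17.8, 26.9 and 30.4 normalized CPM. OVT73 2 was highest in both. OVT73 3 lay above all control libraries in D1 MSNs and among them in D2 MSNs, and OVT73 1 lay among them in both. The log2 fold changes of 0.36 ± 0.21 and 0.45 ± 0.25 (SE; edgeR adjusted p = 0.941 and 0.909) fell to 0.16 and 0.14 without OVT73 2 (edgeR adjusted p = 0.998 and 0.999).

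**Figure D5:**
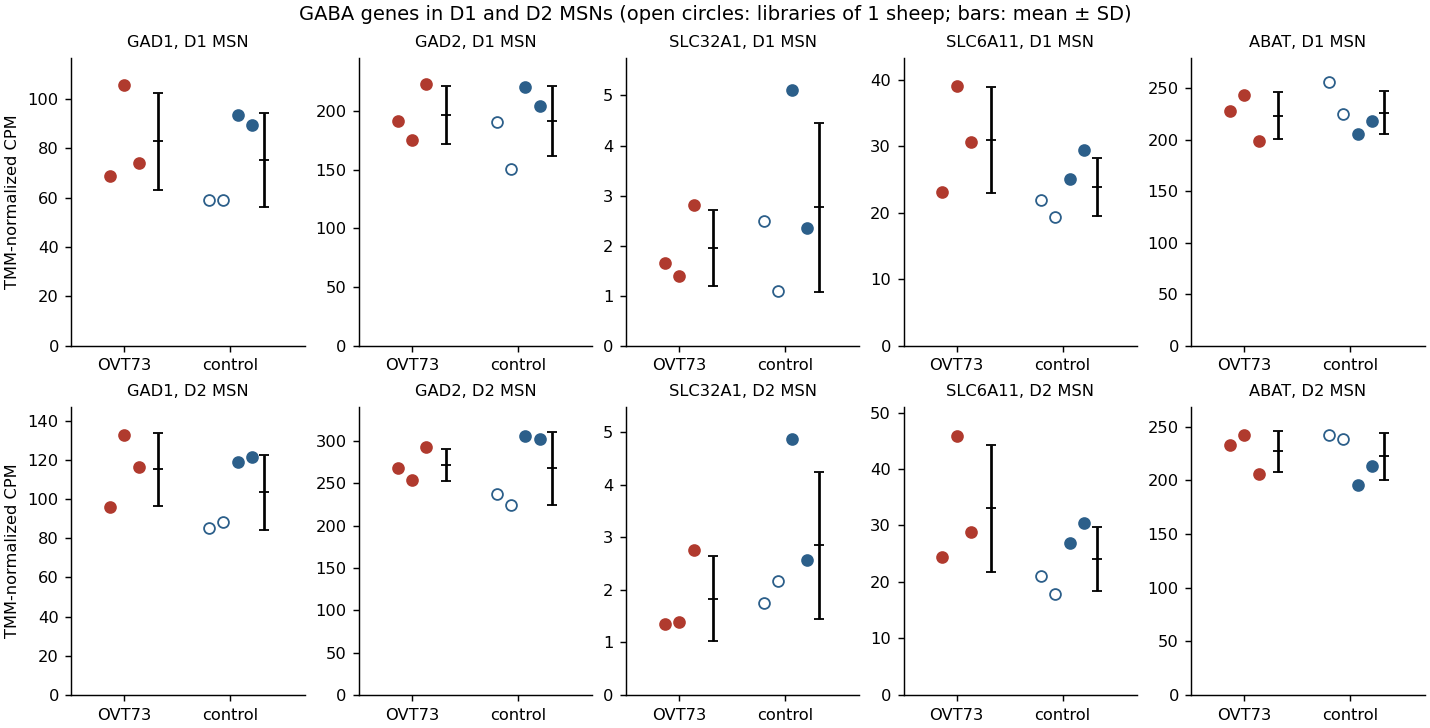
TMM-normalized CPM of the 5 GABA genes in D1 (top) and D2 MSNs (bottom), with 1 point per library, open circles for the control libraries of 1 sheep and bars for the mean ± SD. The groups overlap in all 10 panels, and OVT73 2 is highest for GAD1 and SLC6A11 in both classes.

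In PV/Th interneurons SLC6A11 went the other way and the groups did not overlap. OVT73 1, 2 and 3 had 18.5, 13.5 and 16.2 normalized CPM (31, 15 and 11 UMIs), and control 1 to 4 had 35.3, 23.2, 29.3 and 33.1 (25, 12, 19 and 29 UMIs). The log2 fold change was -0.91 with an SE of 0.28, and edgeR did not call it (adjusted p = 1.00). The two-sided exact permutation test on this gene gave p = 0.0571, its smallest possible value here, so it could not call the gene. Among all genes tested in this class, 2.37% had every OVT73 library below every control library. The fold change was -1.05 to -0.80 when each library was left out. The summed astrocyte markers in this class were at 118, 90.8 and 101 in OVT73 and 89.5, 142, 163 and 191 CPM in control libraries, lower in OVT73 in the mean but with overlap. The largest part of these marker values in each library was SLC4A4, which was also abundant in MSNs. It was at 92.7, 65.4 and 78.2 in OVT73 and 79.6, 102, 96.0 and 94.9 CPM in control libraries. SLC1A2 in the same class was at 76.5, 90.8 and 64.0 in OVT73 and 58.3, 44.3, 113 and 75.9 CPM in control libraries. It was higher in OVT73 in the mean, with overlap. AQP4, GJA1, GFAP and the glutamate transporter gene SLC1A3 were lower in OVT73 in the mean, also with overlap. The part of astrocyte RNA in the result was not tested.

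Values in the remaining classes overlapped as well. In astrocytes, the class with the most SLC6A11, the groups had 311, 324 and 237 against 306, 359, 321 and 302 normalized CPM. OVT73 3 was the lowest and control 2 the highest (log2 -0.14, SE 0.17, edgeR adjusted p = 0.999), and the sign turned to 0.08 when DTHD1 glia were summed with astrocytes. The log2 fold changes were 0.25 ± 0.23 in OPCs, 0.29 ± 0.31 in eccentric MSNs and -0.23 ± 0.34 in DTHD1 glia (SE; edgeR adjusted p = 0.822 to 1.00).

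No difference in ABAT between the groups passed the test in MSNs. D1 MSNs had 227, 244 and 199 against 256, 225, 206 and 218, and D2 MSNs 232, 242 and 206 against 242, 238, 196 and 213 normalized CPM, with log2 fold changes of -0.02 ± 0.11 and 0.03 ± 0.11. In these 2 classes ABAT was the most precisely measured of the 5 genes. The changes were -0.15 ± 0.22 in astrocytes, -0.17 ± 0.17 in OPCs, 0.15 ± 0.16 in oligodendrocytes and -0.01 ± 0.19 in PV/Th interneurons (SE; edgeR adjusted p = 0.834 to 1.00).

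Neuroblasts were the second case without overlap. ABAT was at 80.8, 71.3 and 78.1 in OVT73 and 83.1, 126, 117 and 99.8 normalized CPM in control libraries, on 9 to 55 UMIs per library. The log2 fold change of -0.42 had an SE of 0.28 (edgeR adjusted p = 0.999). The two-sided exact permutation test gave p = 0.0571, its smallest possible value here, so it could not call the gene. Of all genes tested in neuroblasts, 2.19% lay below without overlap, and the nearest libraries of the groups, OVT73 1 and control 1, were 80.8 and 83.1. The summed astrocyte markers in the same nuclei were at 316, 274 and 192 in OVT73 and 527, 523, 529 and 283 CPM in control libraries. They too were lower in OVT73 in the mean, with overlap. Most of this sum was SLC4A4, which was also abundant in MSNs. It was at 284, 191 and 113 in OVT73 and 486, 504, 295 and 241 CPM in control libraries. Other single genes were divided, all with overlap. SLC1A2, GFAP and GJA1 were higher in OVT73 in the mean, and AQP4, SLC1A3 and BMPR1B were lower. The part of astrocyte RNA in the ABAT result was not tested.

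The ratio of GAD1 to GAD2 overlapped between the groups in all 5 neuron classes. In D1 MSNs it was 0.360, 0.601 and 0.332 in OVT73 and 0.308, 0.390, 0.424 and 0.438 in control libraries, and in D2 MSNs 0.359, 0.523 and 0.399 against 0.360, 0.394, 0.389 and 0.401. OVT73 2 was the highest in both classes and the others lay together. In eccentric MSNs the values were 1.01, 1.61 and 1.46 against 0.965, 0.905, 1.71 and 0.815.

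The log2 differences of the ratio, OVT73 minus control, were 0.11 in D1, 0.13 in D2 and 0.35 in eccentric MSNs, -0.30 in PV/Th interneurons and 0.11 in neuroblasts. All groups overlapped (two-sided exact permutation test over 35 splits, adjusted p = 0.786 to 0.80). A split of 3 against 4 libraries cannot give a p below 0.0571 in this test.

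No GABA gene had a D2 to D1 difference in level that separated the groups. For GAD1 it was 0.48 ± 0.16 in OVT73 and 0.47 ± 0.10 in control libraries on the scale log2(CPM + 1), and for GAD2 0.47 ± 0.08 and 0.48 ± 0.12. The difference between the groups ranged over the 5 genes from -0.14 (SLC32A1) to 0.08 (SLC6A11) (two-sided exact permutation test, p = 0.343 to 0.857).

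The other genes of the pathway gave 80 tests in the 10 classes, out of 140 combinations, of which edgeR called 0, with 2 at an unadjusted p under 0.05 (background 4.79%). The groups did not overlap in 3 of them, 1 with OVT73 above (background 3.13%) and 2 with OVT73 below (background 2.79%). MAOB, a monoamine oxidase that also serves GABA formation from putrescine, was at 2.51, 0.853 and 3.0 in OVT73 and 5.58, 9.83, 6.38 and 5.54 normalized CPM in control oligodendrocytes (log2 -1.65, SE 0.41, edgeR adjusted p = 0.839), where 3.14% of all genes lay below without overlap. In PV/Th interneurons PDXK, which makes the cofactor of the decarboxylases and of ABAT, was lower (log2 -0.80, SE 0.36), where 2.37% of all genes lay below without overlap, and the glutamine transporter SLC38A1 higher (log2 0.26, SE 0.14), where 2.92% of all genes lay above without overlap (edgeR adjusted p = 1.00 for both). None of these differences passed the threshold.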

How the data were processed

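Per the labels and the study's methods, the authors prepared nuclei from frozen striatum, made droplet libraries and ran Cell Ranger 7.0.0 with STAR 2.7.2a on the Oar_rambouillet_v1.0 genome. They deposited raw UMI counts per feature and barcode. No sentence of the study says whether intronic reads were counted. Its supplement lists a larger share of reads mapped to the transcriptome than to exons in every library, which points to counted intronic reads. The assignment of pooled nuclei to sheep was not used. No genome of this build was at hand, so no coordinates or sequences are given.

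The members and gene lists were chosen with earlier results of these data known. Nuclei with 200 to 7500 genes and at most 5% mitochondrial UMIs were kept (33957 of 35272). The 4% with the highest scrublet score in each library were removed as doublets (1358), since the automatic threshold marked 712. The 3000 most variable genes, without the GABA and pathway genes, gave 30 components, which were corrected between libraries by a Harmony-style procedure written for this work and clustered on 20 neighbours at resolution 1.0 (Python 3.11.15, scanpy 1.11.5, scikit-learn 1.9.0, igraph 0.11.9). Clusters were named from marker lists. That astrocytes and DTHD1 glia were kept apart, and that 1 neuron class took the name of a leading gene, was decided after the cluster profiles were seen.

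UMI counts were summed per library and class. Classes with at least 10 nuclei in every library were tested with the quasi-likelihood test of edgeR 4.0.16 (R 4.3.3) after TMM scaling and the filterByExpr filter, with Benjamini-Hochberg adjustment over all genes of a class and a threshold of 0.05. The code was checked on simulated data. Ratios and D2 minus D1 differences of log2(CPM + 1) were tested with exact permutation tests (scipy 1.17.1). The two-sided p between groups is the smaller tail doubled. A version that counts splits with at least the observed absolute difference was also tried, after the first results were seen. The genes named are the 5 members in every class, ALDH5A1, and other pathway genes when called or among 5 or fewer without overlap. Some genes and 1 cell class are not reported here. Of the 16 pathway genes, ALDH9A1 and AKR7A2 were not found by symbol. For each member, the 3 most alike genes reached a class mean of 20 CPM and were ranked on log2(CPM + 10). Alternatives were other size factors, no filter, DESeq2 1.42.0, doublets kept, equal nuclei, clustering with the GABA genes and each library left out.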

Additional observations from a re-analysis of the deposited data

Results flagged for a closer look

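In 35 sets of 4 control values, 3 had a library set apart from the other control libraries by Dixon's test, and chance alone marks about 1 in 20 such sets. All 3 concern control 3. GAD1 in eccentric MSNs was at 330.0 normalized CPM in control 3 and at 154 to 179 in the other control libraries, and the GAD1 to GAD2 ratio of the same nuclei was 1.71 there and 0.815 to 0.965 in the others. These values share their counts. Without control 3, the log2 difference between the groups in eccentric MSNs was 0.46 for GAD1 (edgeR adjusted p = 0.838) and 0.58 for the ratio (exact permutation, adjusted p = 0.50). ABAT in oligodendrocytes was at 34.0 normalized CPM in control 3 and 27.7 to 28.6 in the others, within the OVT73 range of 26.7 to 39.2.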

How the results depend on the processing

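For 46 results, 631 values were recomputed, of which 515 kept their direction and their side of the threshold. No OVT73 effect on a GABA gene was called under any setting. Sign changes were confined to differences that had not passed the threshold, and their cause was not tested. With the libraries of 2 sheep only, an alternative chosen after seeing the data, log2 values (OVT73 minus control) turned to -0.14 for GAD1, -0.11 for GAD2 and 0.077 for ABAT in D1 MSNs, -0.063 for GAD1 and -0.17 for GAD2 in D2 MSNs, -0.13 for GAD1 in eccentric MSNs, -0.044 for GAD1 and 0.15 for ABAT in PV/Th interneurons, 0.17 for ABAT in astrocytes, -0.051 for the ratio in D1 MSNs, and -0.0008 for the D2 minus D1 difference of SLC6A11. Without TMM factors, where the median over all genes shifted by -0.09 in D1 MSNs, -0.10 in D2 MSNs and -0.11 in OPCs, they turned to -0.061 and -0.086 for GAD2 in D1 and D2 MSNs, -0.076 for ABAT in D2 MSNs and -0.054 for GAD1 in PV/Th interneurons. Without the filter ABAT was 0.022 in D1 MSNs and 0.036 in PV/Th interneurons, and 0.02 in D1 MSNs with DESeq2. With equal numbers of nuclei ABAT was 0.0084 in D1 MSNs and 0.075 in PV/Th interneurons, GAD2 -0.012 in D2 MSNs, GAD1 -0.0039 in PV/Th interneurons, GAD1 -0.11 and GAD2 0.20 in neuroblasts, and the ratio -0.33 in neuroblasts. With the GABA genes in the clustering GAD1 in PV/Th interneurons was -0.060, and the ratio of PV/Th against eccentric MSNs (-0.69) was no longer called. With astrocyte clusters merged, SLC6A11 was 0.084. The D2 minus D1 ratio was -0.0033 with doublets kept, -0.054 as means over nuclei and -0.12 without the low-PENK cluster.

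Leaving out each library in turn gave -0.072 to 0.27 for GAD1, -0.063 to 0.12 for GAD2 and -0.082 to 0.071 for ABAT in D1 MSNs, -0.058 to 0.088 for GAD2 and -0.029 to 0.10 for ABAT in D2 MSNs, -0.076 to 0.091 for GAD1 and -0.13 to 0.14 for ABAT in PV/Th interneurons, -0.18 to 0.14 for GAD1 in neuroblasts, -0.32 to 0.013 for ABAT in astrocytes and -0.0029 to 0.28 for ABAT in oligodendrocytes. The ratio between groups ran from -0.16 to 0.27 in D1 MSNs and -0.027 to 0.24 in D2 MSNs. Between classes, 0 to 8 pairs were called. The log2 ratio ran from -0.036 to 0.042 for D2 against D1, 1.45 to 1.65 for eccentric against D1 and 1.44 to 1.62 against D2 MSNs, 0.58 to 0.85 for PV/Th against D1 and 0.61 to 0.80 against D2, -0.97 to -0.72 for PV/Th against eccentric MSNs, 0.34 to 0.50 for neuroblasts against eccentric and 1.90 to 2.05 against D1 MSNs. The D2 minus D1 difference between groups ran from -0.067 to 0.089 for GAD1, -0.065 to 0.030 for GAD2 and -0.28 to 0.036 for SLC32A1. The D2 minus D1 level stayed at 0.45 to 0.50 for GAD1 and 0.46 to 0.50 for GAD2, with an unadjusted exact permutation p = 0.0312 each time, the smallest that 6 libraries can give, which no longer passed 0.05 once adjusted over the 5 genes.

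The absolute-difference form of the exact test, whose smallest p is 0.0286, changed no call (ratio between groups, adjusted p = 0.714 to 0.771). No paired analysis was possible because the labels give no replicate numbers shared by the groups and no sheep is in both. SLC32A1 had few UMIs in all classes, and the cause was not tested. The rarer neurons were limited by their numbers, as a library held as few as 24 nuclei in a class tested and 2 in the others.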
